A study of Mus musculus with 14 samples.

Results

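Smooth muscle cells and pericytes, together called mural cells, wrap blood vessels and share a set of contractile and cytoskeletal genes. In RNA of sorted brain cells, 10 contractile or mural cell genes were examined here. They are Acta2, Actg2, Tagln, Cnn1, Myl9, Myh11, Des, the pericyte markers Rgs5 and Pdgfrb, and the striated muscle gene Myoz2. They are measured by 18 of the 45037 probe sets on the array that are not array controls, each probe set being a group of short probes read as 1 value. The genes are 10 of the 18193 that have a probe set of their own. Of the 18 probe sets, 3 carry a name ending in _s_at or _x_at, which marks a sequence shared between transcripts. The 10 genes were selected on the measured intensities of Acta2, Tagln and Myl9, which were high in cells of the subependymal zone sorted for both GFP and prominin. Their differences between that group and the others are therefore given as a description, with no test. Tests were run only among the other groups and on listed genes that are not among the 10. Those lists, too, were chosen with earlier results of these data known.

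All 14 arrays came from hGFAP eGFP mice of 8 weeks, in which the human GFAP promoter drives enhanced green fluorescent protein in astrocytes and astrocyte-like cells, and all 5 groups carry this transgene. DIEC_GFP (n = 4) holds GFP-positive cells of the diencephalon, labelled astrocytes. The other groups came from the subependymal zone, the neurogenic layer beside the lateral ventricle. SEZ_GFP (n = 2) was sorted for GFP, SEZ_Prom (n = 2) for prominin, a surface protein encoded by Prom1, and SEZ_GFPprom (n = 4) for both, and these are labelled neural stem cells. SEZ_CD24 (n = 2) was sorted for the surface protein CD24 and is labelled ependymal cells. No wild-type mice, no sorted smooth muscle cells and no sorted pericytes are among the groups. The labels call the arrays biological replicates but do not say how many animals gave each one, so a p-value here reflects only how far these arrays vary.

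The values are array intensities on a linear scale, and tests and differences are on their log2 scale. Between 25.4% and 25.7% of the probe sets on each array had an intensity of 10 or less, and values near 10 are treated below as near background. Correlations of log2 intensity over all probe sets ran from 0.935 to 0.969 between arrays of a group and from 0.857 to 0.952 between groups. The log2 ratio of 3' over 5' signal for the Gapdh and Actb controls, a measure of RNA quality, was on average highest in DIEC_GFP (5.40) and lowest in SEZ_Prom (4.63), with 4.94 in SEZ_GFPprom. The summed intensity of 14 ependymal markers was 18113 to 31798 in SEZ_GFPprom, 7065 to 10858 in DIEC_GFP and 557 to 864 in SEZ_CD24, so the group labelled ependymal had the lowest of all 5.

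Contraction in smooth muscle depends on actin filaments, of which Acta2 and Actg2 encode muscle isoforms, and on the smooth muscle myosin heavy chain Myh11 with regulatory light chains such as Myl9. Tagln (transgelin) and Cnn1 (calponin) bind actin, Des (desmin) forms intermediate filaments, and Myoz2 (myozenin 2, calsarcin 1) is a Z-disc protein of striated muscle. In brain, Rgs5, a regulator of G protein signalling, and Pdgfrb, the receptor for PDGF-B, are widely used to mark pericytes. Several smooth muscle genes are known targets of serum response factor (Srf), which binds the CArG box.

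The 250 bases before the RefSeq start (GRCm38.p6) were searched for the CArG box and for the CArG box with 1 inner G or C. Both forms have 10 bases, and both strands were searched. Windows of 5 of the genes were searched. The CArG box occurs in 1.47% of all 32851 windows of this length and the form with 1 inner G or C in 7.24%. Windows of Acta2 and Myl9 held a match, and those of Cnn1, Des and Rgs5 held none of these letters. Tagln and Myoz2, also high in SEZ_GFPprom as described below, were not searched. The matches therefore cannot be set against the levels of the genes. The 4 matches are shown 5′ to 3′ on the gene's strand with 10 bases on each side, and capitals mark the match.
Myl9 CArG box: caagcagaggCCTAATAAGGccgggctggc
Myl9 CArG box with 1 inner G or C: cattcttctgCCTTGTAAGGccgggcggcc
Acta2 CArG box with 1 inner G or C: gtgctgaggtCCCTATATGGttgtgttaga
Acta2 CArG box with 1 inner G or C: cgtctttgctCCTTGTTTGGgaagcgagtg
The Myl9 stretches lie at chr2:156775293-156775322 and chr2:156775355-156775384 on the plus strand, with the matches 161 to 152 and 99 to 90 bases before the start. The Acta2 stretches lie at chr19:34255438-34255467 and chr19:34255388-34255417 on the minus strand, with the matches 84 to 75 and 34 to 25 bases before the start. The Acta2 stretches lie inside the gene's annotated span (chr19:34240336-34255585), which reaches farther upstream than the start used here. The Myl9 stretches lie before the span of Myl9 (chr2:156775408-156781657). Distances refer to the start used in the RefSeq table. These matches describe the sequence only, since binding was not measured.

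**Figure D1:**
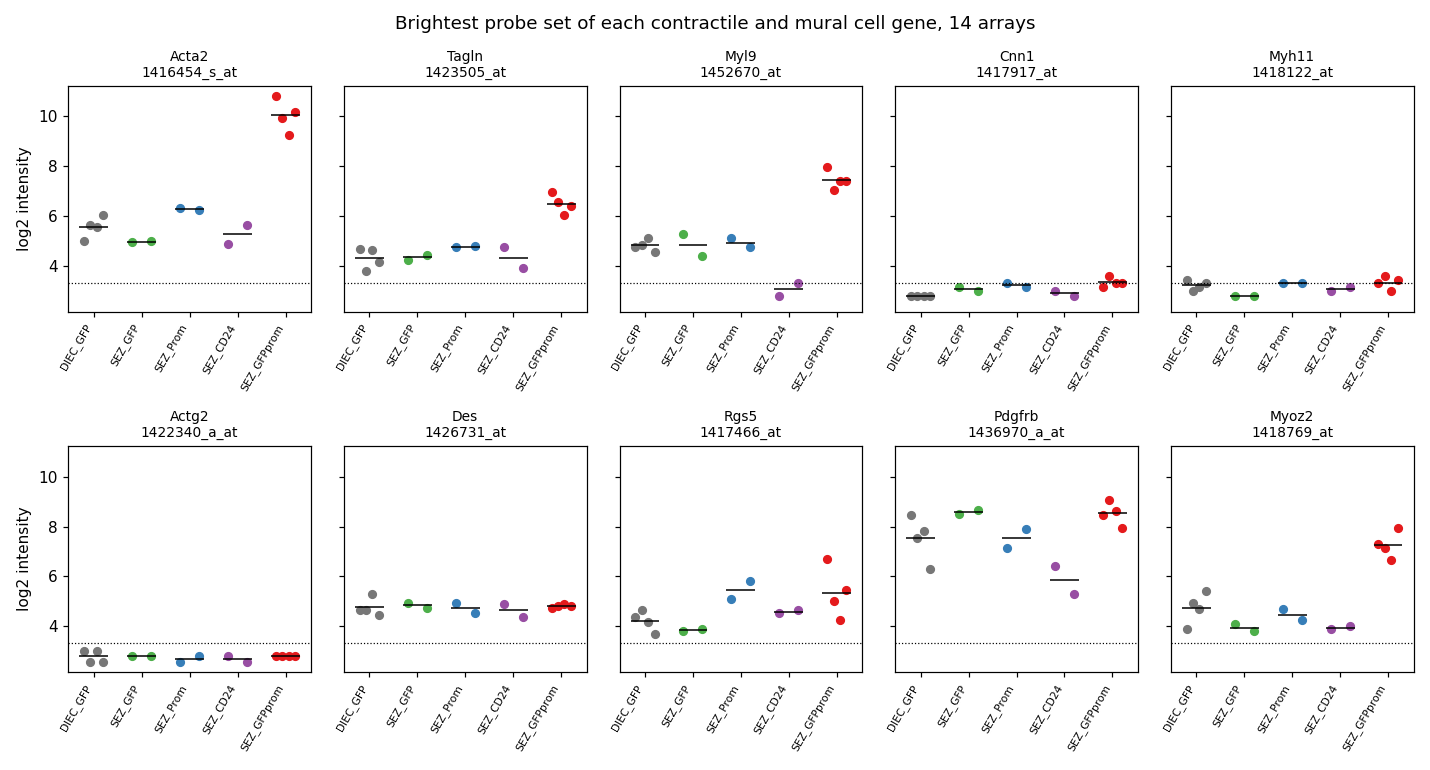
Log2 intensity (vertical axis) of the brightest probe set of each of the 10 genes on the 14 arrays, by sort group. Points are arrays, bars are group means and the dotted line is an intensity of 10, and the 4 SEZ_GFPprom arrays stand above all others for Acta2, Tagln, Myl9 and Myoz2 but not for the other 6 genes.

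Across the 18 probe sets, 4 were higher on all 4 SEZ_GFPprom arrays than on every 1 of the 10 other arrays, namely those of Acta2 (1416454_s_at), Tagln, Myl9 and Myoz2, and 0 were lower on all 4. Over the whole array, 1.79% of probe sets were higher in this way and 0.56% were lower. Since 3 of the 4 genes chose the group, this count is no result about the group. Myoz2 was not among the genes that chose the list, but it comes from the same contrast and is described in the same way. Ordered by the gap on the log2 scale between the lowest SEZ_GFPprom array and the highest other array, Acta2 ranked 1 of 45037 probe sets with a gap of 2.93, Myl9 ranked 3 with 1.75, Tagln 23 with 1.26 and Myoz2 29 with 1.23. The nearest probe sets of the 18 without such a gap were those of Des (1426732_at, -0.09) and Cnn1 (-0.15).

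Acta2, the smooth muscle alpha-actin, had intensities of 1789, 972, 611 and 1176 in SEZ_GFPprom on probe set 1416454_s_at. The other groups read 32, 50, 48 and 67 in DIEC_GFP, 31 and 32 in SEZ_GFP, 80 and 76 in SEZ_Prom, and 30 and 50 in SEZ_CD24. Every SEZ_GFPprom array lay above every other array, and SEZ_Prom came next. The log2 difference of SEZ_GFPprom was 4.47 ± 0.32 (SE of the limma fit) from DIEC_GFP (22.2-fold), 5.07 ± 0.39 from SEZ_GFP (33.6-fold), 3.76 ± 0.39 from SEZ_Prom (13.6-fold) and 4.77 ± 0.39 from SEZ_CD24 (27.3-fold). The mean log2 intensity in SEZ_GFPprom was 10.05 ± 0.64 (SD, n = 4).

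This probe set is marked as sharing sequence with other transcripts, and the other Acta2 probe sets did not follow it. Acta2 1456658_at read 8, 11, 10 and 10 in SEZ_GFPprom against 7 to 10 on the other arrays, and Acta2 1444105_at read 6, 7, 6 and 6 against 5 to 8. Both were near background on all 14 arrays. The probe sets of the other muscle actins were also compared, because actin transcripts are close in sequence. Actg2, the enteric smooth muscle actin, read 6 to 8 on all 14 arrays and 7 on each SEZ_GFPprom array. Actc1, the cardiac actin, read 11 on each SEZ_GFPprom array and 10 to 19 over all 14. Acta1, the skeletal actin, read 12 to 87 in SEZ_GFPprom and 33 to 43 in SEZ_Prom, and its highest value fell on the array where Acta2 was lowest. For Acta1 and Actc1 only the brightest probe set was read. None of the other actin probe sets compared here carried the pattern of 1416454_s_at, and which transcripts gave its signal was not tested.

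**Figure D2:**
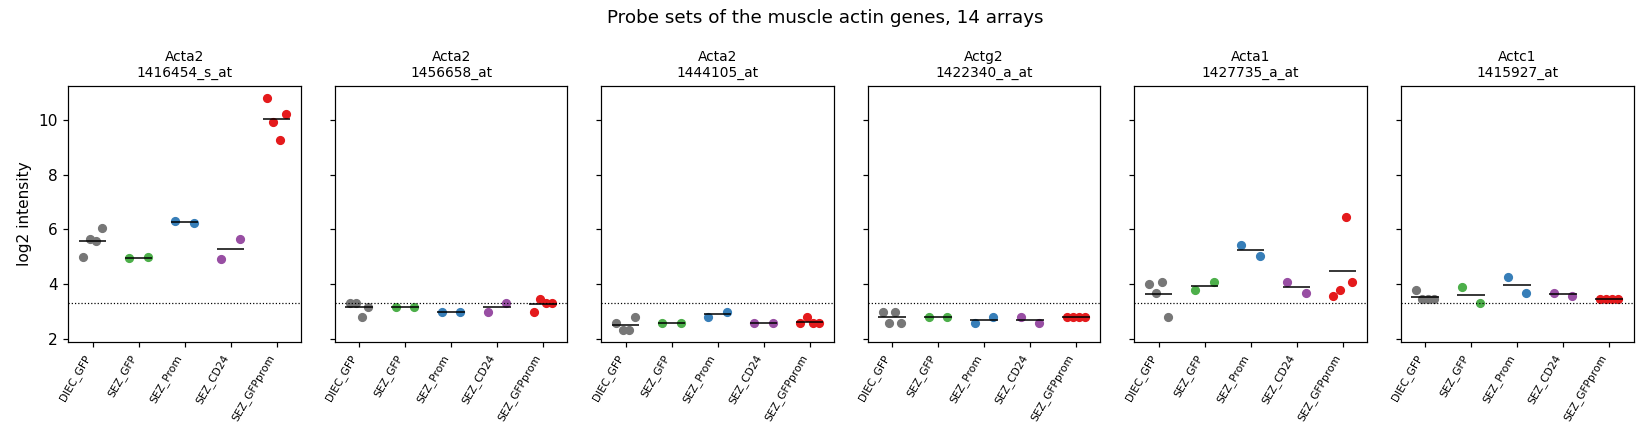
Log2 intensity (vertical axis) of the probe sets of the muscle actin genes on the 14 arrays, by sort group, with points for arrays, bars for group means and a dotted line at an intensity of 10. Acta2 1416454_s_at reads 611 to 1789 in SEZ_GFPprom, while both other Acta2 probe sets and Actg2 stay at 5 to 11 on all arrays.

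Tagln, an early marker of smooth muscle differentiation, read 126, 96, 67 and 85 in SEZ_GFPprom. It read 26, 14, 25 and 18 in DIEC_GFP, 19 and 22 in SEZ_GFP, 27 and 28 in SEZ_Prom, and 27 and 15 in SEZ_CD24. The SEZ_GFPprom arrays did not overlap with any other, and the remaining 4 groups overlapped or lay close to each other. The log2 differences of SEZ_GFPprom were 2.18 ± 0.26 from DIEC_GFP (4.53-fold), 2.16 ± 0.32 from SEZ_GFP (4.46-fold), 1.73 ± 0.32 from SEZ_Prom (3.31-fold) and 2.18 ± 0.32 from SEZ_CD24 (4.53-fold).

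Cnn1, the other actin-binding gene and a marker of mature smooth muscle, stayed near background. It read 9, 12, 10 and 10 in SEZ_GFPprom and 7 to 10 on the other arrays. Its difference between SEZ_GFPprom and DIEC_GFP was 0.54, and it was 0.10 to 0.45 from the other groups.

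Myl9, a regulatory light chain of smooth muscle and non-muscle myosin, read 249, 131, 172 and 169 in SEZ_GFPprom. It read 27, 29, 35 and 24 in DIEC_GFP, 39 and 21 in SEZ_GFP, 35 and 27 in SEZ_Prom, and 7 and 10 in SEZ_CD24. SEZ_GFPprom was apart at the top and SEZ_CD24 at the bottom, while the values of the other 3 groups overlapped. SEZ_GFPprom differed by 2.62 ± 0.25 from DIEC_GFP (6.16-fold), 2.62 ± 0.30 from SEZ_GFP (6.13-fold) and 2.51 ± 0.30 from SEZ_Prom (5.71-fold). Its difference from SEZ_CD24 was 4.39 ± 0.30 (21.0-fold), or 4.13 with values under 10 set to 10.

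Myh11, the smooth muscle myosin heavy chain, stayed near background on both probe sets. Myh11 1418122_at read 10, 12, 8 and 11 in SEZ_GFPprom and 7 to 12 over all 14 arrays, and 1448962_at read 8, 8, 8 and 10 against 7 to 11 over all 14. The light chain Myl9 was thus high in SEZ_GFPprom where the heavy chain of smooth muscle was not above background.

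Myoz2, which tethers calcineurin at the Z-disc, read 156, 142, 101 and 245 in SEZ_GFPprom. It read 15, 31, 26 and 43 in DIEC_GFP, 17 and 14 in SEZ_GFP, 26 and 19 in SEZ_Prom, and 15 and 16 in SEZ_CD24. SEZ_GFPprom did not overlap with the others, among which single DIEC_GFP arrays reached the highest values. The log2 differences of SEZ_GFPprom were 2.51 ± 0.32 from DIEC_GFP (5.70-fold), 3.31 ± 0.40 from SEZ_GFP (9.92-fold), 2.78 ± 0.40 from SEZ_Prom (6.88-fold) and 3.30 ± 0.40 from SEZ_CD24 (9.88-fold).

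Des, the muscle intermediate filament gene, showed no gap between the groups. Des 1426731_at read 27, 28, 30 and 28 in SEZ_GFPprom within a range of 21 to 39 over all 14 arrays. Des 1426732_at read 16, 18, 19 and 16 there within a range of 11 to 19.

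Rgs5 varied widely between the arrays of SEZ_GFPprom. On 1417466_at it read 103, 32, 19 and 44 in SEZ_GFPprom, 34 and 56 in SEZ_Prom, 23 and 25 in SEZ_CD24, 14 and 15 in SEZ_GFP, and 21, 25, 18 and 13 in DIEC_GFP. The first SEZ_GFPprom array was the highest of all 14, and the third lay among the DIEC_GFP values. A second probe set, 1420941_at, was highest in SEZ_Prom (44 and 26) and read 11, 8, 11 and 29 in SEZ_GFPprom, so the array that was highest on the first probe set was near background on the second. Rgs5 1420940_x_at read 9 to 13 and 1420942_s_at read 5 to 7 on all arrays.

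Pdgfrb was present in every group and had no peak in SEZ_GFPprom. On 1436970_a_at it read 350, 543, 392 and 249 in SEZ_GFPprom, 364 and 405 in SEZ_GFP, 357, 187, 224 and 78 in DIEC_GFP, 142 and 240 in SEZ_Prom, and 86 and 39 in SEZ_CD24. SEZ_GFPprom and SEZ_GFP overlapped and SEZ_CD24 was lowest on average. The log2 difference of SEZ_GFPprom was -0.06 ± 0.54 from SEZ_GFP, 1.00 ± 0.44 from DIEC_GFP, 1.00 ± 0.54 from SEZ_Prom and 2.67 ± 0.54 from SEZ_CD24. Pdgfrb 1417148_at read 18 to 63 over the 14 arrays, with 24, 48, 33 and 26 in SEZ_GFPprom.

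**Figure D3:**
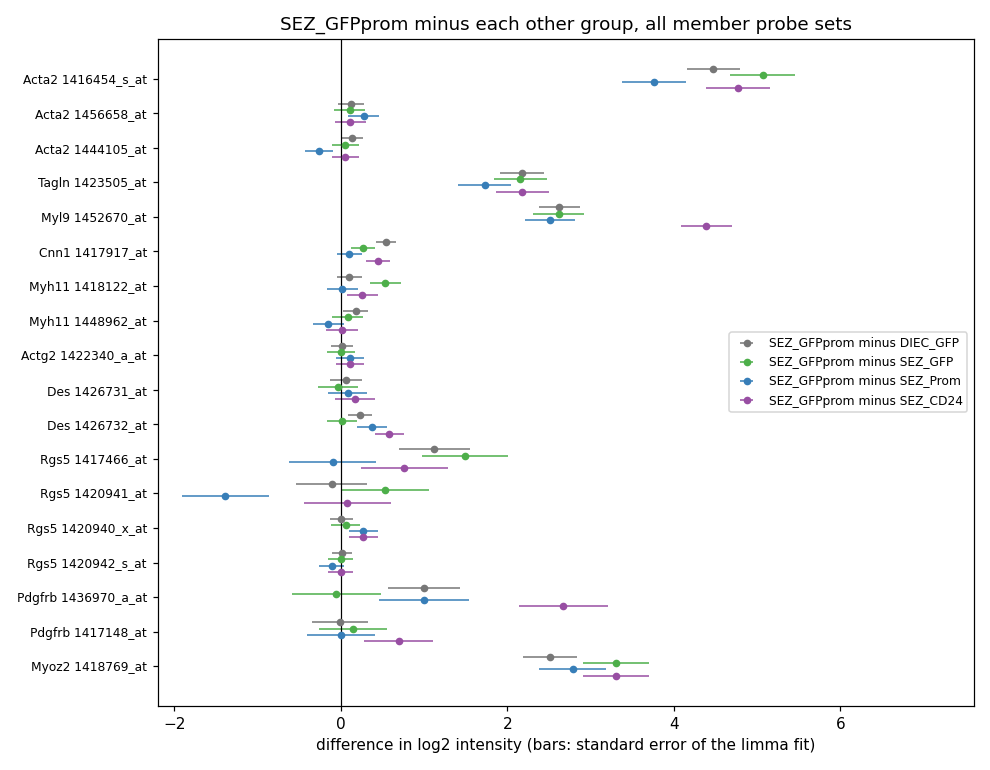
Difference in log2 intensity (horizontal axis) of SEZ_GFPprom from each of the other 4 groups for all 18 probe sets, with bars for the standard error of the limma fit. The differences of Acta2 1416454_s_at, Tagln, Myl9 and Myoz2 lie between 1.73 and 5.07 from every group, while most other probe sets lie near 0.

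Taken one group at a time, 5 of the 18 probe sets were higher without overlap in SEZ_GFPprom than in DIEC_GFP, 6 than in SEZ_GFP, 5 than in SEZ_Prom and 8 than in SEZ_CD24, and 0 were lower. Over all probe sets 8.78%, 11.3%, 12.6% and 15.6% were higher without overlap in the same comparisons, and 6.58%, 10.1%, 12.9% and 13.8% were lower. The median difference of the 18 was 0.15, 0.13, 0.11 and 0.36, against 0.05, 0.03, 0.01 and 0.03 over all probe sets. The 4 comparisons share the SEZ_GFPprom arrays. On 8 of the 18 probe sets no array read above 13, which leaves little room for a difference to be measured.

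Among the 4 other groups the design gives 6 comparisons, which the choice of genes did not use, and these were tested with limma on all 45037 probe sets with Benjamini-Hochberg adjustment. Myl9 changed, and no other of the 10 genes passed the threshold of 0.05. Myl9 was 3.40-fold higher in DIEC_GFP than in SEZ_CD24 (log2 difference 1.77 ± 0.30, limma adjusted p = 0.00352). It was 3.67-fold higher in SEZ_Prom than in SEZ_CD24 (1.88 ± 0.35, limma adjusted p = 0.0199). SEZ_GFP lay as far above SEZ_CD24 (1.77 ± 0.35), with a limma adjusted p of 0.0646. The DIEC_GFP, SEZ_GFP and SEZ_Prom means of Myl9 lay within 0.11 of each other (-0.01 with an interval of -0.67 to 0.66 for DIEC_GFP minus SEZ_GFP). SEZ_CD24 read 7 and 10, near background, and with values under 10 set to 10 the differences were 1.51 (limma adjusted p = 0.0114) and 1.62 (0.0428). The summed intensity of 10 microglia markers was 13357 to 26764 in SEZ_CD24 and 1006 to 12597 on the other arrays. The part of cell composition in the Myl9 differences was not tested.

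The Myl9 call between SEZ_Prom and SEZ_CD24 rests on all 4 arrays. Without any 1 of them its limma adjusted p was 0.0755 (SEZ_CD24 replicate 1 left out), 0.0512 (SEZ_CD24 replicate 2), 0.116 (SEZ_Prom replicate 1) and 0.0767 (SEZ_Prom replicate 2).

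Counted by comparison, limma called 0 of the 18 probe sets between DIEC_GFP and SEZ_GFP, where 7.9% of all probe sets passed. It called 0 between DIEC_GFP and SEZ_Prom (3.5% of all), 1 between DIEC_GFP and SEZ_CD24 (10.8%), 0 between SEZ_GFP and SEZ_Prom (3.86%), 0 between SEZ_GFP and SEZ_CD24 (0.371%) and 1 between SEZ_Prom and SEZ_CD24 (3.22%). At an unadjusted limma p under 0.05 the counts were 1, 4, 2, 4, 3 and 4 in the same order, against 20.4%, 15.8%, 23.2%, 17.9%, 10.5% and 18.2% of all probe sets. The called counts are near the share over the whole array.

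Pdgfrb 1436970_a_at came closest to the threshold after Myl9. It was higher than in SEZ_CD24 by 1.67 ± 0.54 in DIEC_GFP (limma adjusted p = 0.0727), by 2.73 ± 0.62 in SEZ_GFP (0.102) and by 1.67 ± 0.62 in SEZ_Prom (0.174). Without DIEC_GFP replicate 4, whose 78 is the lowest of its group, the first of these became 2.09 with a limma adjusted p of 0.0113. Rgs5 1420941_at was 1.92 lower on the log2 scale in SEZ_GFP than in SEZ_Prom (-1.92 ± 0.61, limma adjusted p = 0.109), and Rgs5 1417466_at differed there by -1.59 ± 0.60 (0.182). Acta2 1416454_s_at in SEZ_Prom, its second highest group, differed from SEZ_GFP by 1.31 in size (-1.31 ± 0.45 for SEZ_GFP minus SEZ_Prom, limma adjusted p = 0.139), from SEZ_CD24 by 1.01 ± 0.45 (0.262) and from DIEC_GFP by -0.71 ± 0.39 for DIEC_GFP minus SEZ_Prom (0.421). None of these passed, so neighbours in the order of the groups were not told apart for Acta2, Rgs5 and Pdgfrb.

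For Tagln the 6 differences among these groups lay between -0.45 and 0.45, and no limma adjusted p was under 0.568. Those of Myoz2 lay between -0.53 and 0.80, the largest being DIEC_GFP over SEZ_GFP with an interval of -0.07 to 1.67 (limma adjusted p = 0.297). Intervals of this width do not show that the groups are alike.

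Beyond the 10 genes, 24 further smooth muscle contractile genes were measured, none of them used in the choice. In SEZ_GFPprom 4 rose and 2 fell against DIEC_GFP, 2 rose and 0 fell against SEZ_GFP, 3 rose and 1 fell against SEZ_Prom, and 6 rose and 0 fell against SEZ_CD24, at a limma adjusted p of 0.05 or less. In the same comparisons 12%, 1.69%, 3.67% and 9.39% of all probe sets passed in either direction, with 6.43%, 1.25%, 2.07% and 5.1% higher and 5.6%, 0.44%, 1.6% and 4.29% lower in SEZ_GFPprom. These shares moved with the setting: the 5417 calls over all probe sets against DIEC_GFP were 2066 with the 3' to 5' ratio as a covariate, the 762 against SEZ_GFP were 213 without SEZ_GFP replicate 2, the 1654 against SEZ_Prom were 403 without SEZ_Prom replicate 1, and the 4227 against SEZ_CD24 were 1666 without SEZ_CD24 replicate 2. The list takes 1 probe set per gene, and in a fit of that kind 3247, 577, 1302 and 2496 of the 18193 genes passed. Each is a larger share than that over all probe sets. The list's median difference was 0.30, 0.34, 0.23 and 0.25, against 0.05, 0.03, 0.01 and 0.03 over all probe sets. Summed on each array, the list gave 6970 to 9327 in SEZ_GFPprom and 8885 to 10101 in DIEC_GFP, which was highest. It gave 5057 to 5594 in SEZ_GFP, 7093 to 7385 in SEZ_Prom and 4981 to 6059 in SEZ_CD24. Bright genes weigh most in such a sum, as Cnn3 alone read 2274 to 5060. When 1 array was left out the number that rose ran from 4 to 5, 1 to 3, 1 to 4 and 2 to 7, the lowest being without SEZ_GFP replicate 2, SEZ_Prom replicate 1 and SEZ_CD24 replicate 1 in the last 3 comparisons. The fall against DIEC_GFP was 1 without any 1 DIEC_GFP array or without SEZ_GFPprom replicate 2 or 4.

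Tagln2 and Cald1 each rose in 3 of the 4 comparisons, and Synm, Flna and Actn1 in 2. Tagln2, the transgelin of non-muscle cells, read 548, 467, 215 and 469 in SEZ_GFPprom against 54 to 103 on all SEZ_GFP, SEZ_Prom and SEZ_CD24 arrays, but 200 to 383 in DIEC_GFP, with which it overlapped. It was 6.22-fold higher than in SEZ_GFP (limma adjusted p = 0.00322), 4.50-fold than in SEZ_Prom (0.00812) and 6.13-fold than in SEZ_CD24 (0.00157). The first of these calls was lost without SEZ_GFP replicate 2 (0.0795) and the second without SEZ_Prom replicate 1 (0.103). Its probe set is of shared sequence, and Tagln2 1426529_a_at, which is not, passed in the same 3 comparisons (log2 differences of 2.17, 1.91 and 1.88).

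Synm (synemin, an intermediate filament protein of muscle and astrocytes) read 205 to 345 in SEZ_GFPprom, 284 to 411 in DIEC_GFP, 223 and 286 in SEZ_Prom, 23 on both SEZ_GFP arrays, and 87 and 22 in SEZ_CD24. It was 12.02-fold higher than in SEZ_GFP (limma adjusted p = 0.00118) and 6.32-fold higher than in SEZ_CD24 (0.00348). The low groups were those with the highest neuroblast marker sums, 15176 to 17503 in SEZ_GFP and 16033 to 27223 in SEZ_CD24, against 5394 to 7273 in SEZ_GFPprom, and the part of cell composition in this was not tested.

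Cald1 (caldesmon, which binds actin and myosin) read 1130 to 1765 in SEZ_GFPprom and 227 to 873 on all other arrays. It was 2.39-fold higher than in DIEC_GFP (limma adjusted p = 0.00559), 5.79-fold than in SEZ_Prom (0.000708) and 2.40-fold than in SEZ_CD24 (0.0183), the last lost without SEZ_CD24 replicate 1 (0.145). Its probe set is of shared sequence too. Cald1 1424770_at, without shared sequence, differed by 1.45, 1.24 and 0.68 in these comparisons and did not pass (limma adjusted p of 0.0661, 0.296 and 0.513).

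Other contractile genes moved by comparison. Flna (filamin A, an actin crosslinker) was 2.58-fold higher in SEZ_GFPprom than in DIEC_GFP (limma adjusted p = 0.00266) and 2.32-fold higher than in SEZ_Prom (0.0289), a call lost without any 1 of 4 arrays. Pdlim7, a PDZ and LIM protein of actin filaments, was 5.75-fold higher than in DIEC_GFP (0.00453). Actn1 (alpha-actinin 1) was 2.73-fold higher than in DIEC_GFP (0.0153), lost with the 3' to 5' ratio as a covariate (0.294), and 3.53-fold higher than in SEZ_CD24 (0.0167), lost without either SEZ_CD24 array (0.0874 and 0.0919). Csrp1, a LIM protein of smooth muscle and of astrocytes, fell: it was 4.54-fold lower than in DIEC_GFP (0.000213) and 5.31-fold lower than in SEZ_Prom (0.000706). Smtn (smoothelin), Mylk (myosin light chain kinase) and Lmod1 (leiomodin) did not pass in any of the 4 comparisons and were dim over all 14 arrays, at 9 to 21, 14 to 19 and 20 to 30. The list also held brighter genes, such as Tpm1 (tropomyosin 1) at 103 to 325 and Cald1 at 227 to 1765.

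Of 24 listed mural cell genes other than Rgs5 and Pdgfrb, 22 were measured. In SEZ_GFPprom 3 rose and 4 fell against DIEC_GFP, 2 rose and 1 fell against SEZ_GFP, 1 rose and 1 fell against SEZ_Prom, and 2 rose and 0 fell against SEZ_CD24. Over all probe sets 6.43%, 1.25%, 2.07% and 5.1% rose and 5.6%, 0.44%, 1.6% and 4.29% fell in these comparisons. The shares were larger with 1 probe set per gene, and they stand beside the counts of the lists below too. The median differences of the mural list were -0.01, 0.07, 0.04 and 0.24. Those of all probe sets (0.05, 0.03, 0.01 and 0.03) were close in all but the last. The count that rose against DIEC_GFP was 1 or 2 whichever array was left out, that against SEZ_GFP was 1 without SEZ_GFP replicate 2, that against SEZ_CD24 was 1 without SEZ_CD24 replicate 2 and 3 without SEZ_CD24 replicate 1, and that against SEZ_Prom was 0 without SEZ_Prom replicate 2. The fall against SEZ_Prom, Mcam, was lost whichever array was left out. The list was summed on each array, and gave 1008 to 1115 in SEZ_GFPprom, 1403 to 2055 in DIEC_GFP, 809 to 976 in SEZ_GFP, 1034 to 1132 in SEZ_Prom and 474 to 715 in SEZ_CD24. Cspg4 gave much of the DIEC_GFP sum: without it the sums were 1002 to 1352 in DIEC_GFP and 945 to 1051 in SEZ_GFPprom, which overlapped.

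Some genes used to define brain pericytes were low on every array: Kcnj8 read 8 to 14, Abcc9 13 to 22, Higd1b 8 to 12 and Anpep 10 to 19. Others were not low throughout, as Notch3 read 51 to 607, Cspg4 23 to 703, Mcam 21 to 207 and Vtn 9 to 69 over the 14 arrays. In bulk RNA, fewer cells of a type and less RNA per cell cannot be told apart. The mural gene that rose against all 4 groups was Art3, an ADP-ribosyltransferase family member, with 291, 154, 205 and 317 in SEZ_GFPprom and 41 to 113 on all other arrays. It was 2.80-fold higher than in DIEC_GFP (limma adjusted p = 0.00809), a call lost with the 3' to 5' ratio as a covariate (0.0569). It was 4.92-fold higher than in SEZ_GFP (limma adjusted p = 0.00679), 4.32-fold than in SEZ_Prom (0.00877) and 5.47-fold than in SEZ_CD24 (0.00206). The call against SEZ_GFP was lost without SEZ_GFP replicate 2 (0.135) and that against SEZ_Prom without SEZ_Prom replicate 2 (0.114).

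Rgs4, a relative of Rgs5, was 13.6-fold higher in SEZ_GFPprom than in SEZ_GFP (limma adjusted p = 0.00158) and 6.46-fold higher than in SEZ_CD24 (0.00542), the second lost without SEZ_CD24 replicate 2 (0.0628). It read 155 to 209 in SEZ_GFPprom and 128 and 193 in SEZ_Prom, which overlapped. Cspg4 (NG2, a proteoglycan of pericytes and of oligodendrocyte progenitors) was 9.75-fold lower in SEZ_GFPprom than in DIEC_GFP (8.54e-05) and 6.25-fold lower than in SEZ_GFP (0.00134). Pdgfra, which marks oligodendrocyte progenitors and is in the PDGF list, was also lower than in DIEC_GFP, by 6.03-fold (0.00485). Heyl, a Notch target, was 4.46-fold lower than in DIEC_GFP (0.00398) and Vtn (vitronectin) 3.73-fold lower (0.00398). The mural genes thus moved in both directions in the comparison with DIEC_GFP.

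The known regulators of the smooth muscle programme, 12 genes, gave 1 rise against DIEC_GFP, 0 limma calls against SEZ_GFP (1 at an unadjusted p under 0.05), 1 fall against SEZ_Prom and 2 falls against SEZ_CD24. Myocd (myocardin), the coactivator of Srf in smooth muscle, read 14 to 18 in SEZ_GFPprom and 9 to 16 on the other arrays and passed in none. Srf itself read 172 to 205 in SEZ_GFPprom and 39 to 122 in DIEC_GFP (2.60-fold, limma adjusted p = 0.0203). It read 315 to 419 in SEZ_Prom and SEZ_CD24, and the part of Srf in the level of Acta2 was not tested. The Srf call was lost without DIEC_GFP replicate 3 (0.0501) or SEZ_GFPprom replicate 2 (0.0549), and a Srf probe set without shared sequence, 1418256_at, differed by 0.45 (0.167). Mef2a, a MEF2 factor, was 2.98-fold lower in SEZ_GFPprom than in SEZ_Prom (0.034, lost without any 1 of 5 arrays) and 3.47-fold lower than in SEZ_CD24 (0.0108, lost without SEZ_CD24 replicate 1, 0.0902).

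Of 20 striated muscle genes, Myl4, an atrial and embryonic myosin light chain, passed in all 4 comparisons. It read 148, 122, 155 and 147 in SEZ_GFPprom and 39 to 69 on the other arrays. It was 2.69-fold higher than in DIEC_GFP (limma adjusted p = 0.000729), 3.24-fold than in SEZ_GFP (0.002), 3.15-fold than in SEZ_Prom (0.00207) and 3.28-fold than in SEZ_CD24 (0.000934). Of the rest, 3 rose against DIEC_GFP and 2 fell against SEZ_Prom. When 1 array was left out, the rises against DIEC_GFP, Myl4 included, ran from 1 to 4 and the falls against SEZ_Prom from 0 to 1. The rises against DIEC_GFP were 1 without DIEC_GFP replicate 2 or SEZ_GFPprom replicate 2.

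The 15 non-muscle actomyosin genes measured, the cytoskeletal machinery of all cells, gave 3 rises and 1 fall against DIEC_GFP, 0 limma calls against SEZ_GFP and SEZ_Prom (2 and 3 at an unadjusted p under 0.05), and 1 of each against SEZ_CD24. The fall against DIEC_GFP, Rhoa (a small GTPase that drives contraction), was lost without any 1 of 6 arrays (limma adjusted p of 0.0518 to 0.0783), and against SEZ_CD24 the count ran from 0 to 1 rises and 0 to 2 falls when 1 array was left out. Myh10 (non-muscle myosin IIB) was 2.80-fold higher than in DIEC_GFP (limma adjusted p = 0.00863) and Tpm4 (a cytoskeletal tropomyosin) 2.71-fold (0.0169; 0.0552 with the 3' to 5' ratio as a covariate). Both read higher still in SEZ_CD24, at 2273 and 3323 for Myh10 and 950 and 889 for Tpm4, than on any SEZ_GFPprom array. The other rise, Myl12a, went the opposite way, with 850 to 1285 in SEZ_GFPprom and 447 to 900 elsewhere, overlapping only SEZ_GFP. Fitted with that covariate, Myl12a did not pass (limma adjusted p = 0.279). Myh9, not among the calls, read 353 to 944 in SEZ_GFPprom and 50 to 500 elsewhere. The list's median differences were 0.22, -0.23, 0.01 and -0.51 against DIEC_GFP, SEZ_GFP, SEZ_Prom and SEZ_CD24.

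Of 17 PDGF and TGF-beta pathway genes 0 rose and 4 fell against DIEC_GFP, and 1, 0 and 1 rose against SEZ_GFP, SEZ_Prom and SEZ_CD24, with 2 against SEZ_Prom at an unadjusted limma p under 0.05. When 1 array was left out the falls against DIEC_GFP ran from 2 to 4, the rise against SEZ_GFP (Tgfbr2, a TGF-beta receptor) from 0 to 1 and the rises against SEZ_CD24 from 1 to 2. The falls against DIEC_GFP were 2 without DIEC_GFP replicate 1, 2 or 3 or SEZ_GFPprom replicate 4. Tgfbr2 was lost without either SEZ_GFP array or without SEZ_GFPprom replicate 1 or 4. Pdgfb, the ligand of Pdgfrb, read 16 to 21 on all 14 arrays and passed in none, and Pdgfd, another ligand of that receptor, read 54, 77, 41 and 16 in DIEC_GFP and 7, 7, 7 and 6 in SEZ_GFPprom. It was lower in SEZ_GFPprom (limma adjusted p = 0.00227; 0.0518 with the 3' to 5' ratio as a covariate), and no fold is given because all 4 SEZ_GFPprom arrays read under 10.

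The markers of other cell types were read beside these genes. The 14 ependymal markers were chosen with earlier results of these data known, so their calls are a description. In SEZ_GFPprom 11 rose against DIEC_GFP and 14 against each of SEZ_GFP, SEZ_Prom and SEZ_CD24. The median differences were 1.68, 3.98, 4.20 and 5.13. Over all probe sets 6.43%, 1.25%, 2.07% and 5.1% rose in the same comparisons. When 1 array was left out the count ran from 9 to 11 against DIEC_GFP and from 11 to 14 against the others. With the 3' to 5' ratio as a covariate, 3 of the 11 passed against DIEC_GFP, the group in which that ratio was highest on average. Foxj1, the master regulator of motile cilia, read 575 to 1086 in SEZ_GFPprom, 144 to 288 in DIEC_GFP and 48 to 69 on all other arrays. The part of ependymal cells in the levels of Acta2, Tagln, Myl9 and Myoz2 was not tested.

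Endothelial markers (13 measured) summed to 403 to 700 in SEZ_GFPprom and 327 to 653 on the other arrays, with 1 rise against DIEC_GFP, Egfl7, and 0 limma calls in the other 3 comparisons (2, 1 and 2 at an unadjusted p under 0.05). The median differences of these markers were 0.03, 0.45, 0.31 and 0.46 against DIEC_GFP, SEZ_GFP, SEZ_Prom and SEZ_CD24. Those of all probe sets were 0.05, 0.03, 0.01 and 0.03, so the endothelial list leaned higher in the last 3 comparisons. Pecam1, Cdh5 and Emcn, which mark vessel endothelium, were at 10 or less on all SEZ_GFPprom arrays. They were as low in every group, with highest values of 11, 11 and 8 over the 14 arrays. Other endothelial genes read higher in SEZ_GFPprom, with Cldn5 at 29 to 123, Flt1 at 41 to 100, Kdr at 42 to 104, Slco1a4 at 33 to 71 and Egfl7 at 86 to 167. Fibroblast and meningeal markers (14) summed to 541 to 769 in SEZ_GFPprom and 339 to 638 elsewhere, with 0 limma calls against DIEC_GFP and SEZ_GFP (2 and 1 at an unadjusted p under 0.05), 1 rise against SEZ_Prom, and 2 rises and 1 fall against SEZ_CD24. Choroid plexus markers (9 measured) summed to 446 to 7814 in SEZ_GFPprom, 1243 to 8794 in DIEC_GFP and 539 to 9374 in SEZ_GFP. The sums were higher in SEZ_Prom (13448 to 14226) and SEZ_CD24 (9492 to 15400). In SEZ_GFPprom 1 rose against DIEC_GFP and 2 against SEZ_GFP, and 5 fell against each of SEZ_Prom and SEZ_CD24. Ttr, at 117 to 14001 over the 14 arrays, gave much of the sum. The part of this uneven signal in the results was not tested.

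**Figure D4:**
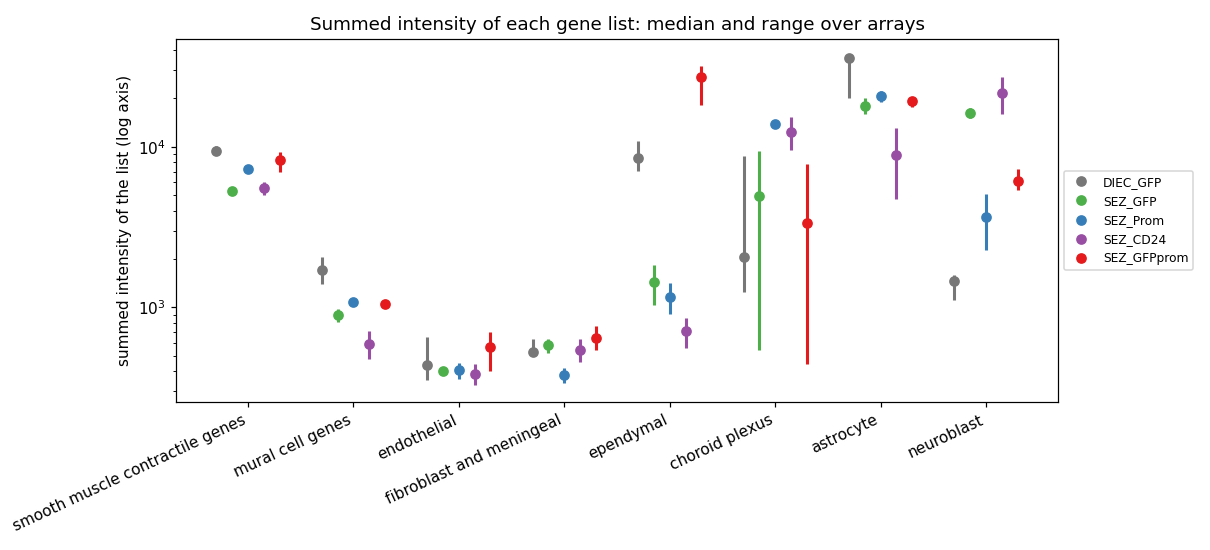
Summed intensity (vertical log axis) of 8 gene lists by sort group, with points for the median and lines for the range over arrays. The ependymal sum is highest in SEZ_GFPprom (18113 to 31798), while the mural sum is highest in DIEC_GFP (1403 to 2055; 1002 to 1352 without Cspg4, which overlaps SEZ_GFPprom) and the endothelial and fibroblast sums overlap between most groups. The contractile sum is also highest in DIEC_GFP (8885 to 10101), overlapping SEZ_GFPprom (6970 to 9327).

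The genes whose pattern over the 14 arrays was most like each of Acta2, Tagln and Myl9 were found by Pearson's r, among probe sets of 1 gene whose log2 values spanned at least 2. Acta2 was most like Myoz2 (r = 0.962), followed by Prr29 (0.949), Med9os (0.945), Marchf10 (0.941) and Efcab10 (0.940). Tagln was most like Oxld1 (0.962), Trim37 (0.939), Crip1 (0.936), Marchf10 (0.933) and Urah (0.932). Myl9 was most like Cfap298 (0.936), Rarres2 (0.935), Lgals3 (0.933), Mycbp (0.932) and Elmod3 (0.928). All of these genes had their 4 SEZ_GFPprom arrays above the 10 others, as in Prr29, with 88 to 158 against 19 to 37, so r describes mainly that gap.

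Among the 10 genes themselves, r over the 14 arrays was 0.932 between Acta2 and Tagln, 0.901 between Acta2 and Myl9, 0.857 between Tagln and Myl9 and 0.890 between Myl9 and Myoz2. It was 0.635 between Acta2 and Rgs5, 0.397 between Acta2 and Pdgfrb, 0.06 between Acta2 and Des and 0.05 between Acta2 and Actg2. The genes fell into those that shared the gap of SEZ_GFPprom, those near background (Cnn1, Myh11 and Actg2), Des at an even level, and the pericyte genes Rgs5 and Pdgfrb with orders of their own.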

How the data were processed

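RNA of 14 sorted samples was measured on Affymetrix MOE430 2.0 arrays after RNeasy extraction with DNase and 2 rounds of amplification, per the labels' protocols. The deposited values are linear intensity values, made with RMA per the submitters' processing notes. A version is not given in the sources used here, nor are scan dates or slides. Of 45101 probe sets, 64 controls were left out. Gene names came from the platform annotation (34945 probe sets with 1 symbol, 932 with several, 9160 with none), updated by gene identifier. Values were taken to log2 without a pseudocount and fitted with limma 3.58.1 in R 4.3.3 (a mean per group, 9 residual and 2.30 prior degrees of freedom, two-sided, Benjamini-Hochberg over 45037 probe sets, threshold 0.05). Intervals are 95% and unadjusted. The number of arrays limits the precision. For a listed gene the brightest probe set, on average over the arrays, was used. Listed genes without a probe set of their own were not analysed here. Named genes are all members, up to 4 genes per list and comparison with the smallest adjusted p, and 5 most alike by r. Other genes were named after their values were seen. The members and lists were chosen with earlier results of these data known. The fit was tested on simulated data. A further sequence match is not reported here.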

Additional observations from a re-analysis of the deposited data

Results flagged for a closer look

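In a group of 4 arrays, 1 array lay farther from the rest than Dixon's 95% critical value allows for 2 of 36 combinations of a probe set and a group, and chance alone flags about 5%. Both are in SEZ_GFPprom and near background, where values are whole numbers. Acta2 1444105_at read 6, 7, 6 and 6, and Myh11 1448962_at read 8, 8, 8 and 10. In each the gap is the whole range, a ratio of 1, because the other 3 arrays have equal rounded values.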

How the results depend on the processing

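The 16 differences of Acta2 1416454_s_at, Tagln, Myl9 and Myoz2 between SEZ_GFPprom and the other groups were recomputed in 308 alternative values. They ran from 1.57 to 5.33, 0 changed sign, and 307 moved by less than 1 SD. The exception was Myoz2 against DIEC_GFP (1.75 with the 3' to 5' ratio as a covariate). Without probe sets of shared sequence the Acta2 probe set has no value. Calls among the other groups were few and moved with the setting. Between DIEC_GFP and SEZ_GFP the count went from 0 to 1 with the covariate (Myoz2). Between DIEC_GFP and SEZ_CD24 it went from 1 to 2 without the dimmest 50% of probe sets, with the replicate block (both adding Pdgfrb) and with the covariate (adding Myoz2), and ran from 1 to 2 when 1 array was left out. Between SEZ_GFP and SEZ_Prom it went from 0 to 1 with array weights (Rgs5 1420941_at), and between SEZ_GFP and SEZ_CD24 from 0 to 1 with 1 probe set per gene (Myl9). Between SEZ_Prom and SEZ_CD24 it went from 1 to 0 with the covariate and with only the groups compared, and was 0 whichever array was left out. Contractile and mural list calls went from 5 to 3 against SEZ_GFP, 6 to 3 against SEZ_Prom and 8 to 5 against SEZ_CD24 with only the groups compared. When 1 array was left out they ran from 10 to 12 against DIEC_GFP, 3 to 6 against SEZ_GFP, 3 to 6 against SEZ_Prom and 4 to 9 against SEZ_CD24. Same-numbered arrays showed no clear pairing: 3 of 22 pairs had a correlation of deviations over 0.1 (-0.14 to 0.11). In a group of 2 arrays the deviations mirror each other, so these pairs are not independent and cannot settle the point. Of the DIEC_GFP arrays, 0 of 4 correlated best with its own number in SEZ_GFPprom. With the replicate block the list calls were 13, 6, 5 and 7 against main counts of 13, 5, 6 and 8. Over all probe sets, SEZ_Prom against SEZ_CD24 gave 1450 calls, and 0 with only the groups compared. Scaling moved the share of higher calls by at most 3.39 points and the median of all probe sets by at most 0.03. The cause of these changes was not tested.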
